A study of Mus musculus with 141 samples.

Results

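The 34 cell proliferation genes described here encode proteins that copy DNA, build the mitotic spindle, or drive the cell into and out of mitosis. They were taken by symbol from the deposited tables of estimated counts and of TPM, and their list uses no measured value, although it was drawn up with earlier results of these data known. All 34 were found among the 36558 genes of both tables, and all 34 were among the 16765 genes that passed the filter on low counts for the comparison of the sexes. By role they comprise 7 genes of replication and nucleotide supply, 4 cyclins with their kinase, 7 mitotic kinases, 6 kinetochore and chromosome proteins, 6 spindle and cytokinesis proteins, 2 genes of mitotic exit and 2 transcription factors.

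Expression was measured by RNA-seq in inguinal white adipose tissue (iWAT), a subcutaneous fat depot, of inbred mouse strains from the Hybrid Mouse Diversity Panel (HMDP). Females and males alike were put at 8 weeks of age on the HF/HS diet, which is rich in fat and sucrose, ate it for 8 weeks and were fasted for 4 h before tissue was taken, so the series holds no group on another diet. There are 67 female and 74 male libraries of 82 strains with at most 1 library per sex and strain, both sexes are present in 59 strains, and the strains were grouped by name into classical inbred (21 female and 23 male libraries), BXD (32 and 34), AXB/BXA (9 and 11), CXB (3 and 3) and BXH (2 and 3). The BXD strains include BXD24/TyJ-Cep290<rd16>/J in both sexes, whose name gives the rd16 allele of *Cep290*. AXB19/PgnJ, AXB19a/PgnJ and AXB19b/PgnJ were counted as separate strains, and relatedness between strains was not modelled. Because no strain has a replicate within a sex, strains serve as the replicates, and a p-value measures the spread between them.

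Total estimated counts ranged from 6269154 to 78562648 per library with a median of 30233245, at which 3 counts correspond to 0.0992 CPM. Summed Y-linked expression went against the sex label in 3 libraries, namely BXD34/TyJ and BXD69/RwwJ among those labelled female and NZW/LacJ among those labelled male, and results that rest on them are given with and without them. The BXD34/TyJ library was also the shallowest of all and had the highest share of mitochondrially encoded counts (29.9%). Its summed Y-linked level was 1425 CPM, above the 185 to 539 CPM of the 73 label-concordant male libraries. In PL/J, a processed copy of *Pcna* stood at 17.1 TPM in the female library and at 0 in the male, whereas it was high or low in both libraries of every other matched strain. The summed level of 13 lymphocyte markers was split at 5 times the median of all libraries, which gave 78 lymphocyte-poor libraries (median 22.9 CPM, highest 208) and 63 lymphocyte-rich libraries (median 1042 CPM, lowest 255), and 14 libraries lay between 50 and 500 CPM. Of the rich libraries 32 were female and 31 male. The summed level of 9 mammary epithelial markers had a median of 487 CPM in females and 2.55 CPM in males, and that of 6 adipocyte markers 19302 and 27178 CPM.

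Proliferating cells switch on these genes in waves. Replication genes such as the MCM helicase subunits are induced by E2F factors as the cell enters S phase, and the mitotic genes follow in G2 through the MYBL2-MuvB and FOXM1 complexes, which reach their targets through short promoter elements known as the CHR (cell cycle genes homology region) and the CCAAT box. Mature adipocytes do not divide, and the dividing cells of adipose tissue are found among its progenitors, immune cells and endothelial cells and, in the female inguinal depot, the mammary epithelium. In tissue RNA of this kind, fewer cells of a type and less RNA per cell cannot be told apart.

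The promoters of 5 members are printed to show where these elements lie in genes of different roles. They are the 150 bases before the RefSeq start (GRCm38.p6, 5′ to 3′ on the strand of the gene) with matches to the elements in capitals. *Mcm6* (chr1:128359706-128359855, minus strand) and *Pcna* (chr2:132253181-132253330, minus strand) belong to the replication group, *Cdk1* (chr10:69352913-69353062, minus strand) is the mitotic kinase, *Top2a* (chr11:99024190-99024339, minus strand) encodes the topoisomerase that untangles chromosomes, and *Ube2c* (chr2:164769779-164769928, plus strand) encodes the ubiquitin-conjugating enzyme of mitotic exit.
Mcm6: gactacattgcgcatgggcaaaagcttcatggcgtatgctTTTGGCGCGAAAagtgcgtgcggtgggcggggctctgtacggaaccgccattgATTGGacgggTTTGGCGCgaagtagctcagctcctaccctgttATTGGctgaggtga
Pcna: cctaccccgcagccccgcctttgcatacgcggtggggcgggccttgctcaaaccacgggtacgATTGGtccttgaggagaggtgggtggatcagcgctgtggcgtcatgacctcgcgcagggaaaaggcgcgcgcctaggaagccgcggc
Cdk1: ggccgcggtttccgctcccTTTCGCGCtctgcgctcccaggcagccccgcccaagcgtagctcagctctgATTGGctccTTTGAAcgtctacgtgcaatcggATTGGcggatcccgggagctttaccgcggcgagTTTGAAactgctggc
Top2a: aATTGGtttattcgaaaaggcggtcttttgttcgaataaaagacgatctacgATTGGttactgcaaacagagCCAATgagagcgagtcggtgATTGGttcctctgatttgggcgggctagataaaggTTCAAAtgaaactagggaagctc
Ube2c: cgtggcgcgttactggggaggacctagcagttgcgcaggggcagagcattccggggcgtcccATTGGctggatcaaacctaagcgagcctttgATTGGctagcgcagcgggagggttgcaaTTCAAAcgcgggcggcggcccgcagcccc

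Over the whole window from 250 bases before to 50 after a start, 30 promoters of 29 members from the RefSeq table were searched. Promoters on chromosome 18, where *Kif20a* lies, were left out for the members but kept among all promoters. The CHR letters TTTGAA, read on both strands, were in 17 of the 30 (56.7%), against 17.9% of all 32851 promoters of the table. They were in 1 of 7 promoters of the replication group and in 2 of 3 of the cyclins and their kinase, 4 of 6 of the mitotic kinases, 4 of 6 of the kinetochore group, 4 of 5 of the spindle group, 2 of 2 of mitotic exit and 0 of 1 of the transcription factors. The CCAAT letters were in 25 of 30 (83.3%), against 37.4% of all promoters. An E2F element (TTTCCCGC, TTTGGCGC or TTTCGCGC, both strands) was in 4 of 30 (13.3%), against 1.84% of all, namely in those of *Mcm3*, *Mcm5*, *Mcm6* and *Cdk1*. Among the 15395 promoters of tested genes the shares were 13.2% for the CHR, 37.3% for CCAAT and 2.99% for E2F. *Prc1* entered with 2 promoters, and by gene the CHR was in 16 of 29 members and CCAAT in 24 of 29. Both E2F matches farther from the start of *Mcm6*, which lie on opposite strands, overlap. A match is a string of letters and was not tested as a site.

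The 34 genes were expressed at low levels, with a median of the gene medians of 4.06 TPM, a scale that corrects for transcript length. The lowest gene median was that of *Ttk*, the spindle checkpoint kinase, at 1.22 TPM, and 30 of the 34 genes had a median under 10 TPM. *Pcna*, the sliding clamp that holds polymerases on DNA, stood apart with 6.75, 74.7 and 157 TPM as the lowest, median and highest female library and 28.8, 78.7 and 144 TPM in males. *Mki67*, the gene of the proliferation marker Ki-67, had 0.285, 4.55 and 28.7 TPM in females and 0.559, 4.96 and 13.2 TPM in males. The ratio of the highest to the lowest library was smallest for *Tyms*, at 6.93. Female and male ranges overlapped for all 34 genes. In 29 of the 34 genes every library had more than 3 counts, and *Aurka* and *Plk1* were each listed at 0 in 1 library.

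**Figure D1:**
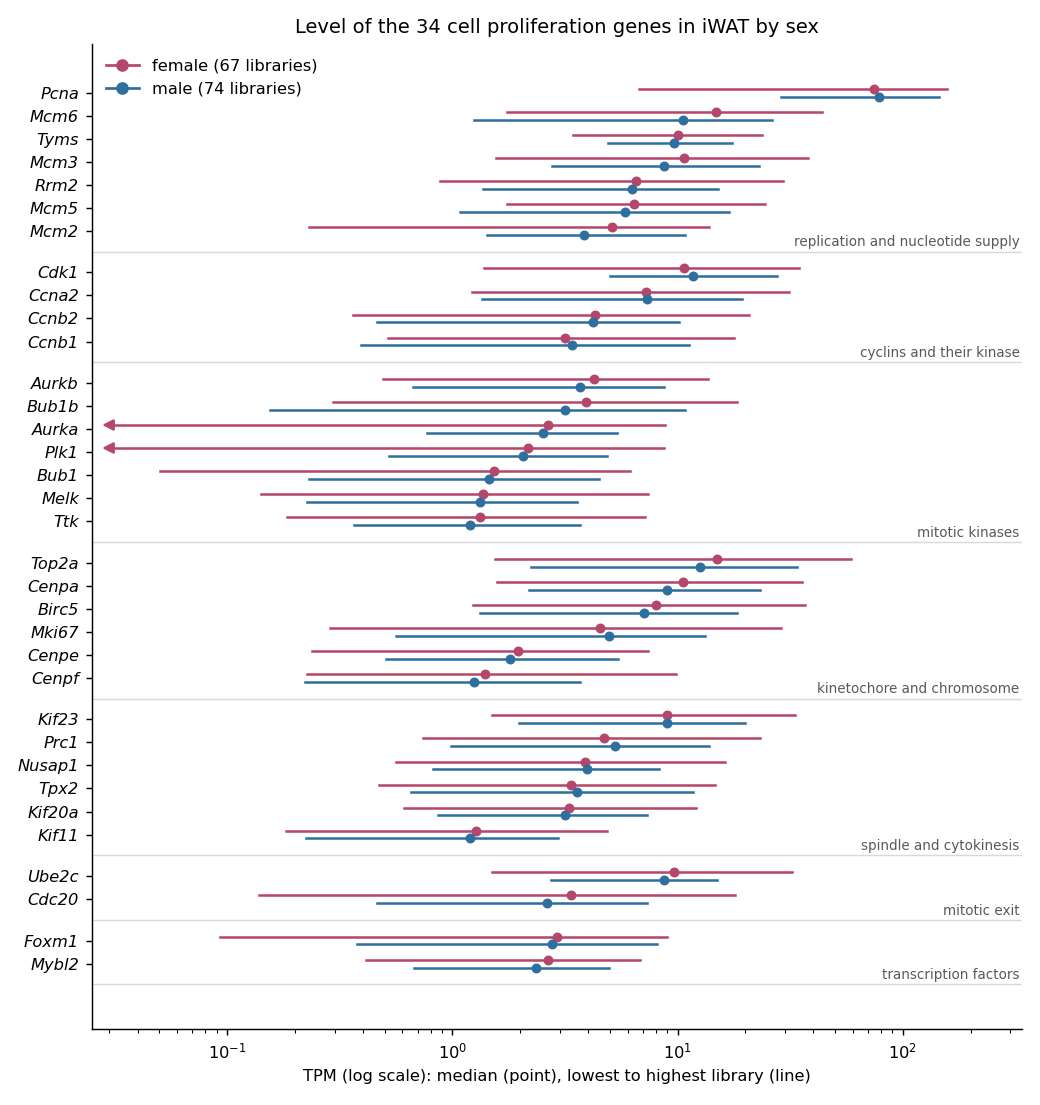
Level of each of the 34 genes in TPM (log axis), with the median as a point and the lowest to highest library as a line for 67 female and 74 male libraries; arrowheads mark a lowest library listed at 0. *Pcna* lies at a median of 76.3 TPM over all libraries and *Ttk* at 1.22 TPM, and female and male medians lie close together against the spread of libraries.

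The genes varied together. The 561 pairs of members had a median Pearson correlation of log2 CPM of 0.82 over the 67 female libraries and 0.78 over the 74 male libraries, against medians of -0.02 and -0.00 between members and other tested genes. These are descriptions over libraries that share a depth and a mixture of cells. The median pair stood at 0.76 in the lymphocyte-poor and 0.87 in the lymphocyte-rich female libraries, and at 0.79 and 0.70 in the male ones. *Tyms*, the thymidylate synthase that makes the DNA building block dTMP, followed the rest least, with a median correlation with the other members of 0.42 in females and 0.27 in males. *Mki67* in males and *Ccna2*, cyclin A2, in females followed the others most closely (0.90 and 0.93).

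The first comparison asked whether the genes differ between females and males of the same strain. Of the 34 genes, 3 were higher in females and 0 lower at an adjusted p under 0.05, against 28.4% of the 16765 genes tested that were higher in females and 29.8% that were lower. The share of members called is thus below the background in each direction. The median log2FC of the members was 0.15, beside 0.01 over all genes tested, and 32 of the 34 values were above 0.

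*Mcm6* (ENSMUSG00000026355, chr1:128331590-128359664), a subunit of the replicative helicase, showed the clearest difference. In the 59 matched strains it had 1.96, 15.2 and 43.8 TPM as the lowest, median and highest female library and 1.24, 10.4 and 25.1 TPM in males. The ranges overlapped, and the female library was the higher in 46 of 59 strains. Its mean was 32.7 ± 18.2 CPM in females and 21.8 ± 11.3 in males (SD, n = 59 strains), a log2FC of 0.55 ± 0.12 (SE, adjusted p = 5.2e-05).

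*Cdc20*, the activator of the anaphase-promoting complex, had 0.583, 3.45 and 18 TPM in females and 0.464, 2.57 and 7.30 TPM in males of these strains. It was higher in the female of 36 strains, with a log2FC of 0.40 ± 0.17 (adjusted p = 0.0421). *Tyms* differed by a log2FC of only 0.12 ± 0.05 (adjusted p = 0.0465), from 3.42, 10.1 and 23.7 TPM in females and 4.92, 9.20 and 17.4 TPM in males, and was higher in the female of 34 strains. The highest libraries of all 3 genes were female. For *Tyms* and *Pcna*, reads shared with processed pseudogenes are split by probability in kallisto, which makes their values uncertain. The pseudogene *Tyms-ps* was listed at 0.625 TPM at most, whereas *Pcna-ps2* reached 36.9 TPM.

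Genes of the other roles did not pass the test. *Mki67* had 0.492, 5.22 and 28.7 TPM in females and 0.559, 4.25 and 10.6 TPM in males, with a log2FC of 0.13 ± 0.19 (adjusted p = 0.581). *Top2a* had a log2FC of 0.20 ± 0.19 (adjusted p = 0.369), *Aurkb*, the kinase of the chromosomal passenger complex, 0.17 ± 0.14 (adjusted p = 0.310) and *Kif23*, the kinesin of the central spindle, 0.09 ± 0.14 (adjusted p = 0.587). *Ube2c* had a log2FC of 0.18 ± 0.11 (adjusted p = 0.160) and *Foxm1*, the transcription factor of the G2 wave, 0.03 ± 0.11 (adjusted p = 0.821). *Pcna* and *Cdk1* had values below 0, with -0.08 ± 0.05 (adjusted p = 0.152) and -0.06 ± 0.10 (adjusted p = 0.656).

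The difference between the sexes within a strain moved with the lymphocyte markers. The proliferation score, which is the mean log2 CPM of the 34 genes in a library, differed between female and male of a strain by 0.14 ± 1.01 (mean and SD of female minus male, 59 strains) and was higher in the female of 35 strains. In the 15 strains of which only the female library was lymphocyte-rich the difference was 1.0 ± 0.82 and above 0 in 14. In the 8 strains of which only the male library was rich it was -1.10 ± 0.81 and above 0 in 0 of 8. In the 20 strains with both libraries poor it was -0.01 ± 0.95, and in the 16 with both rich 0.13 ± 0.53. The 8 strains with only the male library rich include NZW/LacJ, whose library labelled male went against its label. Its score was 3.22 in that library and 1.75 in the female one.

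**Figure D2:**
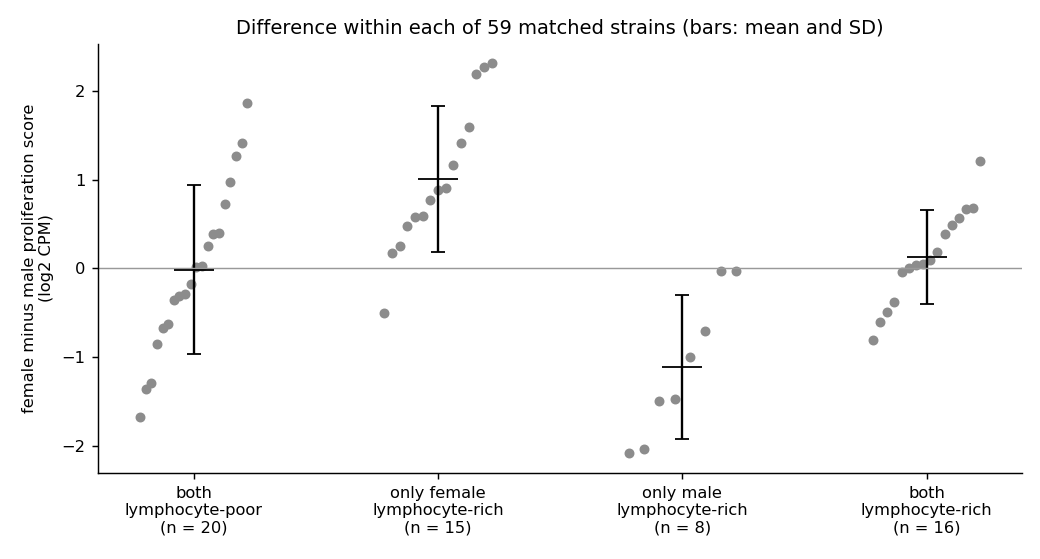
Female minus male proliferation score (log2 CPM) in each of the 59 matched strains, split by which of the libraries was lymphocyte-rich; points are strains and bars the mean and SD. The differences lie above 0 in 14 of 15 strains of which only the female library was rich and in 0 of 8 of which only the male library was rich. These 8 include NZW/LacJ, whose library labelled male went against its label.

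Without the strains that hold a lymphocyte-rich library, 2 of the 34 genes were called, *Mcm6* as higher in females (log2FC 0.31 ± 0.13, adjusted p = 0.0493) and *Pcna* as lower (-0.20 ± 0.07, adjusted p = 0.0195), against 19.5% of genes higher and 21.4% lower, and the median log2FC of the members was -0.05. The values of *Cdc20* and *Tyms* were 0.28 ± 0.28 (adjusted p = 0.456) and 0.05 ± 0.08 (adjusted p = 0.667) there, and that of *Mki67* was -0.05 ± 0.32. Without NZW/LacJ, whose male library went against its label, 6 members were called, all higher in females, against 29.9% of genes. When the epithelial score, the mean log2 CPM of the 9 epithelial markers, was added as a covariate, 0 members and 8 of the 16765 genes (0.0477%) were called. That score had a median of 5.05 in females and -2.36 in males, so sex and the score can hardly be told apart in this fit. Without the strain term, 15 members were higher in females, against 24.4% of genes, so the share of members is above the background there. By limma-voom 11 of 34 members were higher, against 4729 of 16765 genes, a share near the background. Without PL/J, 4 members were higher, against 4880 of 16775 genes, and 0 lower.

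**Figure D3:**
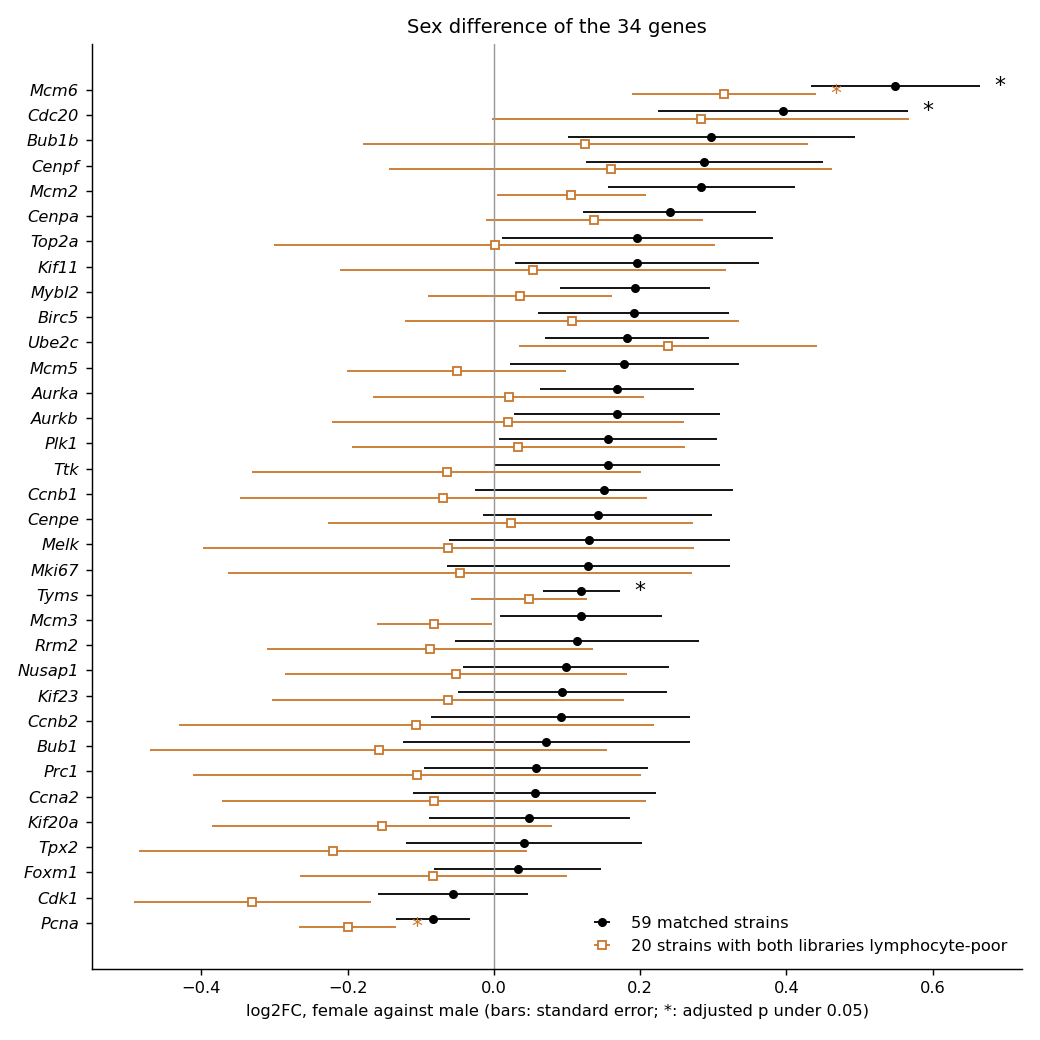
log2FC of each gene, female against male, with its standard error, in all 59 matched strains (filled) and in the 20 strains of which both libraries were lymphocyte-poor (open); asterisks mark an adjusted p under 0.05. *Mcm6* is marked in both sets, *Cdc20* and *Tyms* only in the first and *Pcna* only in the second.

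Differences between strains, tested against the spread between the sexes within a strain, were called for 3 of 34 members against 71.2% of the genes tested. The 3 were *Mcm6* (F = 2.99, adjusted p = 1.2e-04), *Cdk1* (F = 2.14, adjusted p = 0.00507) and *Pcna* (F = 1.74, adjusted p = 0.0279). For *Mki67* F was 1.33 (adjusted p = 0.160) and for *Top2a* 1.25 (adjusted p = 0.214). In the 20 strains without a lymphocyte-rich library, 21 of the 34 members were called, against 65% of 16188 genes. They were 4 of 7 in the replication group, 3 of 4 cyclins and their kinase, 5 of 7 mitotic kinases, 4 of 6 in the kinetochore group, 3 of 6 in the spindle group, 0 of 2 of mitotic exit and both transcription factors. There, *Mcm6* had F = 9.57 (adjusted p = 2.1e-05), *Mcm3* F = 5.37 (adjusted p = 7.9e-04) and *Mki67* F = 2.36 (adjusted p = 0.0438), while the call of *Pcna* was lost (F = 1.99, adjusted p = 0.0832). In 23 of the 59 strains only 1 of the 2 libraries was lymphocyte-rich, and the part of this in the number of calls was not tested.

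The strain with the highest proliferation score among females was FVB/NJ (4.55), a lymphocyte-rich library with 15.6 TPM of *Mki67* and 1067 CPM of lymphocyte markers. It was followed by SM/J (4.31) and KK/HlJ (4.26). The KK/HlJ library was lymphocyte-poor (16.6 CPM) and held the highest epithelial level of all libraries (2197 CPM), with 25.5 TPM of *Mki67* and 41.5 TPM of *Top2a*. The lowest female scores were those of 129X1/SvJ (1.01), C57BLKS/J (1.18) and BXD50/RwwJ (1.31), all lymphocyte-poor, with 0.492, 0.572 and 0.655 TPM of *Mki67*.

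Among males the highest scores were those of BXD73/RwwJ (3.91), CE/J (3.71) and BTBR T<+> tf/J (3.50). BXD73/RwwJ and BTBR T<+> tf/J were lymphocyte-rich, and CE/J was lymphocyte-poor (24.8 CPM) with 1191 CPM of macrophage markers, beside a male median of 517. AXB5/PgnJ (1.08), BXD12/TyJ (1.63) and CXB13/HiAJ (1.68) had the lowest male scores, again all lymphocyte-poor. These 12 libraries are named for their position and were not tested.

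Families of strains were compared within each sex. The score had a mean of 2.87 ± 1.12 in classical inbred, 2.75 ± 0.78 in BXD and 2.68 ± 0.76 in AXB/BXA females (SD, n = 21, 32 and 9), and of 2.84 ± 0.50, 2.68 ± 0.55 and 2.48 ± 0.64 in males (n = 23, 34 and 11). Over all 5 families 0 of 34 members were called in females, against 4.39% of 15476 genes, with 0 members and 2713 genes at an unadjusted p under 0.05. In males 1 was called, against 9.09% of 14976 genes. It was *Mcm6* (F = 4.24, adjusted p = 0.0467), which had 1.24, 2.35 and 3.46 TPM in the 3 CXB males and medians of 10.9 TPM in classical inbred, 11 in BXD, 10.1 in AXB/BXA and 20.6 in BXH males. All CXB males lay below all AXB/BXA and BXH males. Without the male library of NZW/LacJ the call was lost, and 8.33% of genes were called.

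BXD against classical inbred strains called 0 of 34 members in either sex, against 8.11% of genes in females and 6.00% in males. At an unadjusted p under 0.05 were 3 members in females and 5 in males, against 3667 of 15476 and 3209 of 14976 genes. The median of the members was -0.25 in females and -0.12 in males, beside 0.02 and -0.01 over all genes, and without lymphocyte-rich libraries it was 0.08 in females and -0.22 in males. A sex difference that differs between families was called for 0 members and 0.0% of 16762 genes by edgeR's quasi-likelihood test. The lowest adjusted p of a member was 0.933, and 730 genes and 0 members had an unadjusted p under 0.05. By limma-voom 0 were called as well, with 936 genes and 0 members at an unadjusted p under 0.05. Only families with at least 3 matched strains entered this test, so BXH was left out.

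Against lymphocyte content the members rose together. With the lymphocyte and epithelial scores in one model within each sex, 25 of 34 members rose with the lymphocyte score in females, against 26.9% of 15476 genes, and 29 of 34 in males, against 34.3% of 14976 genes. In neither sex did a member fall, while 39.5% of genes in females and 39.4% in males did. The median slope of the members was 0.11 log2 units of expression per log2 unit of the score in females and 0.09 in males, beside -0.02 and -0.01 over all genes.

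The helicase subunits were among the steepest. *Mcm5*, *Mcm2* and *Mcm3* rose by 0.22 ± 0.03, 0.20 ± 0.02 and 0.18 ± 0.02 in females and by 0.20 ± 0.02, 0.21 ± 0.02 and 0.16 ± 0.02 in males (SE). *Top2a* had 7.34 TPM in the median lymphocyte-poor and 22.9 in the median lymphocyte-rich female library, with ranges from 1.54 to 52.7 and from 6.50 to 58.9 TPM. In males it had 9.49 and 16.1 TPM. The ranges of poor and rich libraries overlapped in both sexes, and the slope was 0.18 ± 0.04 in females (adjusted p = 1.5e-04) and 0.15 ± 0.03 in males (adjusted p = 1.3e-06).

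*Mki67* stood at medians of 2.44 and 8.09 TPM in poor and rich female libraries and 3.57 and 6.68 TPM in male ones, with slopes of 0.16 ± 0.05 and 0.12 ± 0.03. *Pcna*, at 64.3 and 98.1 TPM in females and 72.9 and 91.6 in males, had shallower slopes of 0.08 ± 0.01 and 0.03 ± 0.01. *Cdk1* did not pass the test in either sex (0.03 ± 0.03 and -0.02 ± 0.02), and neither did *Ube2c*, *Cenpf* or *Prc1*. The slope was called different between the sexes for 0 of 34 members, against 1.99% of genes.

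**Figure D4:**
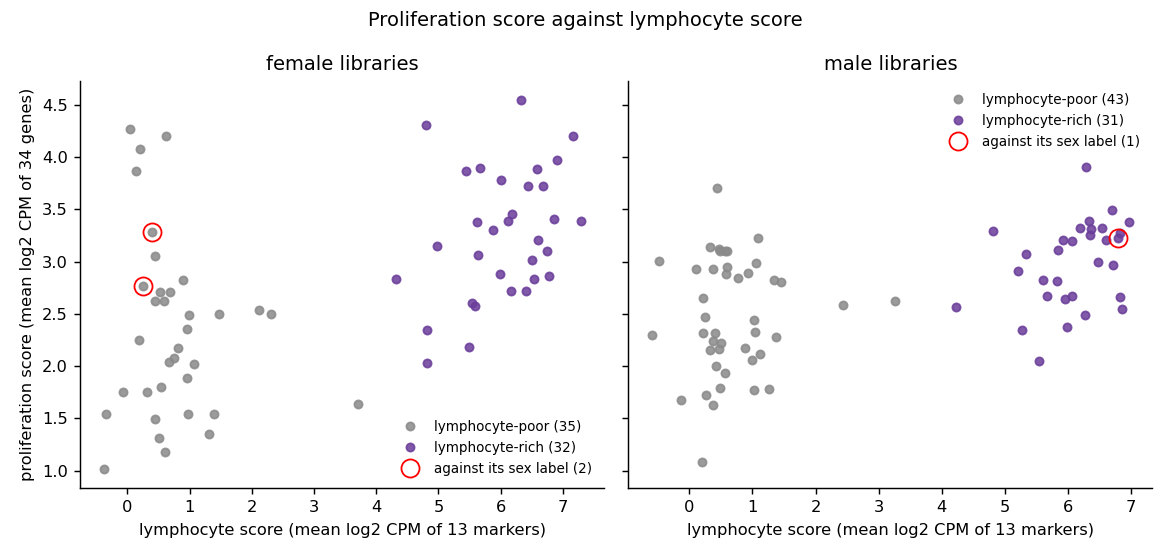
Proliferation score (mean log2 CPM of 34 genes) against lymphocyte score (mean log2 CPM of 13 markers) in the female (left) and male (right) libraries; colours give lymphocyte-poor and lymphocyte-rich libraries and red circles those whose Y-linked genes went against the sex label. The lymphocyte-rich libraries have a median score of 3.26 in females and 3.08 in males, the poor ones 2.25 and 2.44, and within the poor libraries the scores spread from 1.01 to 4.26 in females.

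The same slope was estimated within strains, from the difference between the female and the male library with both scores and sex in the model. There 33 of 34 members rose with the lymphocyte score, against 34.1% of genes, with a median of 0.20, and *Cdk1* was the exception (0.06 ± 0.03, adjusted p = 0.0519). Among the lymphocyte-poor libraries alone, where the score spans little, 0 of 34 members were called in either sex, against 0.423% of genes that rose in females and 1.23% in males. The direction turned there, with a median slope of -0.41 in females (1 of 34 above 0) and -0.06 in males (6 of 34 above 0). In the lymphocyte-rich libraries alone 11 members rose in females, against 23.1% of genes, and 5 rose and 1 fell in males, against 19.6% and 21.6%. The list of germinal centre B cell markers, a sign of dividing B cells, held 6 genes, of which 4 passed the filter on low counts. Of these 4, 2 rose and 1 fell with the lymphocyte score in each sex. Over all 6, the lowest marker median was 0.0664 CPM in lymphocyte-poor and 0.594 CPM in lymphocyte-rich libraries, and the highest 63.3 and 52.9 CPM. As the markers with too few counts were left out, the test cannot show whether the list moved as a group.

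Other tissue markers moved with the same score, and all 4 skeletal muscle markers tested fell with it in females. All 6 adipocyte markers and all 6 endothelial markers fell with it in both sexes, 4 of 6 adipose progenitor markers fell and 1 rose in females and 5 fell and 1 rose in males, and the part of these cell types in the members' slopes was not tested.

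Against epithelial content, the result in females turned on the 2 libraries labelled female whose Y-linked genes went against the label. They had the lowest epithelial scores of the female libraries, -2.92 for BXD69/RwwJ and 2.06 for BXD34/TyJ, beside a median of 5.05. With both in the fit, 0 of 34 members rose with the epithelial score and 2 fell, *Tyms* (-0.27 ± 0.07, adjusted p = 0.00191) and *Birc5*, the survivin gene (-0.27 ± 0.09, adjusted p = 0.0137), against 13.8% of genes that rose and 24.8% that fell. Without both, 19 of 34 members rose and 0 fell, against 19% and 23.4% of 15479 genes, and the median slope went from 0.04 to 0.24.

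In the 65 label-concordant females, the members that rose came from every role: 3 of 7 in the replication group, 3 of 4 cyclins and their kinase, 4 of 7 mitotic kinases, 3 of 6 in the kinetochore group, 4 of 6 in the spindle group, 1 of 2 of mitotic exit and 1 of 2 transcription factors. *Melk*, a mitotic kinase, had the largest slope (0.43 ± 0.13, adjusted p = 0.00409), followed by *Mcm6* (0.40 ± 0.09, adjusted p = 2.3e-04), *Ttk* (0.39 ± 0.11) and *Cdc20* (0.38 ± 0.10). *Mki67* had 0.28 ± 0.12 (adjusted p = 0.0532) and *Pcna* -0.04 ± 0.04. Without BXD34/TyJ alone 0 members were called, against 34.2% of genes. Without BXD69/RwwJ alone 13 rose and 2 fell, against 16.3% and 30.5% of genes. Among the label-concordant, lymphocyte-poor females, in a model of the epithelial and macrophage scores, 12 of 34 rose, against 17.8% of genes, with a median slope of 0.31.

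In males none of the 9 epithelial markers passed the filter on low counts, and 3 of 9 had a median below the level of 3 counts, so the epithelial score there rests on few reads. Of the 34 members 0 rose and 3 fell with it, *Cdk1* (-0.10 ± 0.03), *Cenpa* (-0.08 ± 0.03) and *Melk* (-0.13 ± 0.05), against 5.45% of genes that rose and 6.40% that fell, and 0 were called without lymphocyte-rich libraries, against 0.352% of genes. The median slope was -0.07 in all males and -0.19 in the lymphocyte-poor ones, where 0 of 34 values were above 0. In a model of both sexes with the macrophage score as well, and without the libraries against their labels, the epithelial slope was higher in females than in males for 29 of 34 members and lower for 0, against 15.6% and 14.9% of genes. With those libraries it was higher for 1 and lower for 2, against 7.63% and 11.7% of genes.

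Macrophage content was added to the model after the data were seen. In males, 33 of 34 members rose with the macrophage score, the mean log2 CPM of 8 markers, beside the lymphocyte and epithelial scores, against 17.4% of genes. The median slope was 0.54, with 0.75 ± 0.12 for *Bub1*, the checkpoint kinase, 0.73 ± 0.10 for *Tpx2*, a spindle assembly factor, 0.66 ± 0.12 for *Mki67* and 0.63 ± 0.10 for *Top2a*. *Tyms* was the exception (0.04 ± 0.05). In the lymphocyte-poor males 32 of 34 rose, against 16.6% of genes. In females 0 of 34 were called, against 26.7% of genes, with a median slope of 0.22 and 0.50 ± 0.24 for *Mki67* (adjusted p = 0.118), and 1 of 34 rose without the libraries against their labels, against 18.1% of genes. The difference of this slope between the sexes was called for 0 of 34 members and 0.842% of genes, so a difference between the sexes is not shown. In males 5 of 6 adipose progenitor markers rose with the macrophage score as well, and their part in the slopes was not tested.

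**Figure D5:**
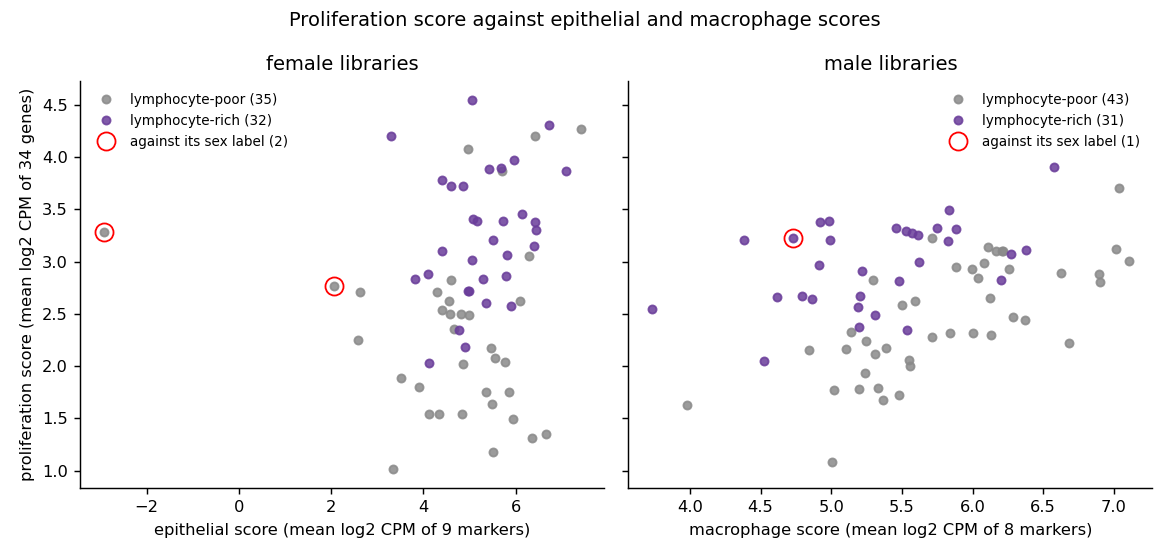
Proliferation score against epithelial score in female libraries (left) and against macrophage score in male libraries (right), all as mean log2 CPM, with lymphocyte-poor and lymphocyte-rich libraries in colour and libraries against their sex label circled in red. The circled female libraries lie at epithelial scores of -2.92 and 2.06, to the left of the other 65, and the CE/J male, lymphocyte-poor with a score of 3.71, has 1191 CPM of macrophage markers.

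Other genes of the cell cycle were described from lists of their own. Of 20 other DNA replication genes 4 were higher and 2 lower in females, and of 40 other mitosis genes 3 were higher and 2 lower, shares below those of all genes tested (28.4% and 29.8%). With the lymphocyte score 13 of 20 and 22 of 40 rose in females, against 26.9% of all genes, and 16 of 20 and 28 of 40 in males, against 34.3%. With the macrophage score in label-concordant males, 12 of 20 and 33 of 40 rose, against 2557 of 14941 genes. The upstream lists went both ways: of 17 G1 cyclins, their kinases and E2F/RB genes 8 rose and 4 fell with the lymphocyte score in females, and of 8 DREAM and MuvB subunits 4 rose and 2 fell, against 26.9% and 39.5% of all genes.

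Single genes of these lists with the highest expression illustrate this. *Mcm7*, the partner of *Mcm6* in the helicase, was higher in females (log2FC 0.22 ± 0.06, adjusted p = 8.8e-04), and *Smc4*, a condensin subunit, rose with the lymphocyte score in females by 0.22 ± 0.02. Among the CDK inhibitors, *Cdkn1a*, which encodes p21, was lower in females (-0.67 ± 0.12) and *Cdkn1b*, which encodes p27, higher (0.32 ± 0.05). *Ccnd2*, a D-type cyclin, did not pass the test for sex (0.09 ± 0.05, adjusted p = 0.104).

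The tested non-member genes whose log2 CPM followed the proliferation score most closely, by the mean of the Spearman correlations over 67 female and 74 male libraries, were *Cdca2* and *Kif15* (both 0.95), *Clspn*, ENSMUSG00000111220, which has no symbol in the annotation, *E2f8*, *Cdca8*, *Dlgap5*, *Incenp*, *Ncapg* and *Uhrf1*, with means from 0.95 down to 0.94. Of these 10, 5 are on the list of other mitosis genes, 1 on that of replication genes and 1 on that of the E2F/RB genes.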

How the data were processed

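RNA-seq of iWAT from 67 female and 74 male libraries was analysed. The authors quantified transcripts with kallisto 0.46.1, and the submitters' processing notes name the mouse build mm10. The authors deposited estimated counts per gene, of which 30.3% of values were not whole numbers, and TPM, which is scaled for transcript length and library total. No column was left out. Gene IDs were paired with symbols from GENCODE M21 for 35856 of 36558 genes. Members, gene lists and tests were chosen with earlier results of these data known, so no list is independent evidence.

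Counts were rounded to whole numbers and tested with edgeR 4.0.16 in R 4.3.3 (quasi-likelihood test, TMM scaling, filterByExpr, Benjamini-Hochberg adjustment over all genes tested, threshold 0.05). SE is the log2FC divided by the square root of F. Sex and strain were fitted as additive terms in 59 matched strains, families within each sex and by sex, and slopes on marker scores within each sex. A marker score is the mean log2 CPM (prior count 2) of its list. The strain pairs the female and male library by the labels: their deviations correlated by 0.41 on average, against -0.01 between strains, and over 0.1 in 45 of 59 strains. DESeq2 1.42.0, limma 3.58.1 (voom, and log2(TPM + 1) or log2(TPM + 0.1)), other scalings, filters and covariates were alternatives.

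On simulated counts with known changes the sex comparison called 197 of 200 changed genes and 7 others among 16276 genes. That of BXD with classical inbred females called 157 of 197 and 7 others among 16189. The lymphocyte slope in females called 187 of 195 and 11 others among 16193. The sizes set were 0.5 to 1 log2 units for sex and families and 0.1 to 0.3 for the slope. Genes were simulated independently of each other and with the same scatter for all, whereas the members vary together and differ in their SE. The recovery therefore does not give the share of changed members that would be called. Recovery of smaller differences was not tested, and the median log2FC of the members for sex was 0.15. All 34 members are named, with the 3 most expressed tested genes of each other list as candidates for examples, the 10 genes most like the score, and the strains with the 3 highest and 3 lowest scores per sex. The depth ranged from 6269154 to 78562648 counts, and the floor of 3 counts covers counting error only, whereas SE and SD cover the spread between libraries or strains. No pair of libraries held identical counts.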

Additional observations from a re-analysis of the deposited data

Results flagged for a closer look

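In the 9 AXB/BXA female libraries the highest *Tyms* value, that of AXB12/PgnJ at 4.02 log2 CPM (16.6 TPM), lay apart from the others, with a gap to its neighbour of 0.572 of the whole range. In the same group the lowest *Ube2c* value, that of AXB13/PgnJ at 0.91 log2 CPM (2.83 TPM), lay apart with a gap of 0.496 of the range. The critical value for 9 libraries is 0.493, and chance gives about 1 such group in 20. The 34 groups examined were the 34 members in these same 9 libraries. As the members vary together, the groups are not independent of each other.

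The slope on the epithelial score differed between females and males for *Mcm6* by 0.23 (adjusted p = 0.0112), for *Tyms* by -0.32 (adjusted p = 1.3e-04) and for *Birc5* by -0.24 (adjusted p = 0.0497), as female minus male, with the libraries against their labels included. Without them the values were 0.51 (adjusted p = 7.3e-06), 0.04 (adjusted p = 0.541) and 0.25 (adjusted p = 0.0213).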

How the results depend on the processing

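The number of members higher in females was 3 in the reported fit. It was 15 with no replicate block, that is no pairing of the libraries by strain (4086 of 16765 genes higher). It was 12 over all libraries without that block (4491 of 16862 genes), 11 by limma-voom (4729 of 16765) and 9 with library totals (7410 of 16765). It was 5 on log2(TPM + 1) (5354 of 16765) and 6 without libraries against their label (5017 of 16766). It was 1 with no filter (4845 of 32258), without lymphocyte-rich libraries (3157 of 16188) or with the lymphocyte score (4787 of 16765). With the epithelial score or both scores it was 0 (3 and 10 of 16765 genes). The number lower in females, 0, was 1 without lymphocyte-rich libraries (3463 of 16188 genes lower) and 1 with the lymphocyte score (5184 of 16765). Members called between strains, 3, were 5 on log2(TPM + 1), 9 on log2(TPM + 0.1), 6 without libraries against their label and 21 without lymphocyte-rich libraries. Over families in males, 1 became 2 on either TPM scale and 0 by limma-voom, without libraries against their label or without lymphocyte-rich libraries. For BXD against classical inbred strains, 0 became 1 in females with both scores, and in males 1 with no filter, limma-voom or DESeq2 and 2 with both scores.

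Rising lymphocyte slopes, 25 in females and 29 in males, were 0 and 0 without lymphocyte-rich libraries and 11 and 5 within them, where 1 fell in males. Rising epithelial slopes in females, 0, were 2 with library totals, the macrophage score or each score alone, 1 with at least 10 counts in every library or limma-voom, 4 in lymphocyte-rich libraries, 13 without BXD69/RwwJ, 19 without both libraries against their label, 26 with the macrophage score too, and 12 without lymphocyte-rich libraries too. Falling ones, 2, were 1 without lymphocyte-rich libraries and 0 with library totals, limma-voom, either TPM scale, lymphocyte-rich libraries only, without BXD34/TyJ, or in the 3 settings without libraries against their label. In males the 3 falling were 1 by limma-voom or each score alone, 5 without libraries against their label, and 0 without lymphocyte-rich libraries, in them alone, or with the macrophage score. Macrophage slopes in females went from 0 to 1, and epithelial slopes higher in females from 1 to 29 and lower from 2 to 0, without libraries against their label.

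Directions turned as follows, and the cause was not tested. The epithelial score nearly separates the sexes, with a median of 5.05 in females and -2.36 in males. In fits that hold this score, a sex difference and a difference in the score can hardly be told apart. For sex, with the epithelial score and with both scores, *Tyms* became -0.29 and -0.28, *Cdc20* -0.26 and -0.17, *Aurkb* -0.15 and -0.10, *Top2a* -0.58 and -0.46, *Kif23* -0.26 and -0.19, *Foxm1* -0.13 and -0.10 and *Mki67* -0.69 and -0.57. Without lymphocyte-rich libraries and with the lymphocyte score, *Kif23* became -0.063 and -0.038, *Foxm1* -0.083 and -0.068 and *Mki67* -0.046 and -0.048. With library totals, which moved the median of all genes from 0.01 to 0.12, *Pcna* became 0.025 and *Cdk1* 0.054, and *Cdk1* was 0.053 by limma-voom, 0.0084 on log2(TPM + 1), 0.094 without the strain pairing and 0.031 over all libraries. Lymphocyte slopes without lymphocyte-rich libraries were -1.1e-04 and -0.0035 for *Pcna* (females, males), -0.47 for *Top2a* in females, and -0.49 and -0.041 for *Mki67*. Epithelial slopes in females became, for *Tyms* and *Birc5*, 0.10 and 0.20 without libraries against their label, 0.15 and 0.18 in lymphocyte-rich libraries, 0.051 and 0.054 without BXD34/TyJ, 0.092 and 0.22 with the macrophage score and without libraries against their label, 0.10 and 0.29 without lymphocyte-rich libraries too, and 0.020 for *Tyms* by limma-voom.

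Of the other values, 259 named-gene values and 158 counts kept their direction and side of the threshold, among them the counts for sex and strain without PL/J, while 57 named-gene values kept their direction and lost their call and 8 gained one. With 1 library per sex and strain, the spread within a strain and sex was not measured. Depth limits *Aurka*, *Plk1*, *Bub1*, *Cdc20* and *Mybl2*, each at or under 3 counts in 1 library.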

Other observations

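*Mcm6* relative to the other helicase subunits differed between strains in a like way in both sexes. The difference of its log2 CPM from the mean of *Mcm2*, *Mcm3* and *Mcm5* ran from -0.71 to 2.53 in females and from -0.70 to 1.4 in males of the 59 matched strains. The 2.53 is that of NZW/LacJ, whose library labelled male went against its label and had 8.1e-04. The 20 strains with lymphocyte-poor libraries named below do not include NZW/LacJ. Female and male values of a strain correlated with Pearson's r = 0.75 and Spearman's rho = 0.59 (permutation p = 1e-05 for each, the smallest that 100000 resamples can give, and adjusted p = 3.0e-05 over 3 such relations). Without the 2 strains farthest from the median r was 0.72, and over the 20 strains with lymphocyte-poor libraries it was 0.87. The difference was below 0 in all 3 CXB males (-0.70 to -0.25) and lay between -0.20 and 0.17 in CXB females. BALB/cJ, a classical inbred strain, had 0.04 in the female and -0.56 in the male, 129X1/SvJ had -0.71 and -0.24, and A/J had 1.51 and 1.4. The same measure for *Mcm3* against *Mcm2* and *Mcm5* gave r = 0.34 and for *Cdk1* against 3 cyclins 0.10 (adjusted permutation p = 0.0129 and 0.454), and without the 2 farthest strains that of *Mcm3* fell to 0.20. These genes and strains were chosen after their values were seen.

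*Pcna-ps2*, a processed copy of *Pcna*, had 12 to 36.9 TPM in 28 libraries of 17 strains and at most 0.742 TPM in the rest. It was high in both sexes of 11 matched strains, low in both of 47, and differed between the libraries of PL/J, with 17.1 TPM in the female and 0 in the male. Whether both PL/J libraries are of that strain was not tested. The copy was high in 24 of 44 classical inbred and 4 of 5 BXH libraries and in 0 of 66 BXD, 0 of 20 AXB/BXA and 0 of 6 CXB libraries. Median *Pcna* was 71.7 TPM in the libraries with a high copy and 77.9 TPM in the others. Since kallisto divides shared reads by probability, the level of either copy is uncertain. The copy was chosen after its values were seen.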
